A study of Homo sapiens with 10 samples.

Results

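Respiratory chain assembly factors are nuclear-encoded proteins that build complexes I to V of the mitochondrial inner membrane without staying in the finished enzymes. To describe how their mRNAs responded to arginine starvation, 45 assembly factors were chosen by gene symbol and grouped by the complex they assemble. A value was found for 43 of them among 17687 genes tested, of which 14 assemble complex I, 4 complex II, 6 complex III, 16 complex IV and 3 complex V, the ATP synthase. COX16 and SCO2, both of complex IV, had no probe set that carried their symbol alone in the annotation used and were not analysed here.

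RNA of 2 human prostate cancer cell lines was measured on 10 Affymetrix Clariom S arrays. CWR22Rv1 is a line of castration-resistant prostate cancer and PC3 is an androgen-independent line, and each is a single established line. All cells were kept in arginine-free RPMI with dialyzed serum, and control cultures received L-arginine at 200 mg/L. In CWR22Rv1 cells, a time course held 1 array of control cells taken as 0 h, which the labels place at 24 h in control medium. It also held 1 array after 24 h of starvation and 1 array after 48 h. The 48 h array thus differs from that control both in starvation and in time in medium, which cannot be told apart. A separate experiment, called the DMKG experiment here, held 1 array each of control cells, of starved cells and of starved cells given dimethyl α-ketoglutarate (DMKG), a membrane-permeable form of α-ketoglutarate, all at 48 h. DMKG was at 5 mM by the labels, while the methods text gives the same figure in micromolar. PC3 cells had 2 control and 2 starved arrays at 48 h. The labels do not say whether replicates are separate cultures, so each p-value reflects the spread of these arrays alone, which may be technical. Each array held RNA of a whole culture, so fewer cells with an mRNA and less mRNA per cell cannot be told apart.

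Each complex is put together in steps. Complex I grows from a quinone-binding module and membrane modules, the latter built by the mitochondrial complex I intermediate assembly (MCIA) proteins, and complex II needs factors that load flavin into SDHA and iron-sulfur clusters into SDHB. Complex III depends on chaperones of cytochrome b and of the Rieske iron-sulfur protein. Complex IV has the longest list, since its mitochondrially encoded core subunits COX1 and COX2 must be inserted into the membrane and supplied with haem A and copper, and the ATP synthase needs chaperones for its F1 head and its c-ring.

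Values are log2 signals as deposited. Array medians lay between 6.11 and 6.87 and the medians of the negative controls between 3.30 and 4.04. Member values ranged from 2.80 to 14.7, and 9 of 430 lay under the highest negative-control median, all of them of SDHAF1. In the DMKG experiment many genes carried exactly the same value on different arrays. Control and starved cells were equal for 21.6% of all genes and starved and DMKG cells for 26.3%, against at most 0.124% between any 2 arrays of the time course or of PC3 cells. Among the members, 10 of 43 had at least 2 equal values of the 3, and TMEM126B, SDHAF1 and COX11 had the same value on all 3 arrays, so a difference of exactly 0 in this experiment is given as listed. The part of these equal values in the results was not tested. The lines could be told apart by their markers, with FOLH1 at 10.7 to 13.3 in CWR22Rv1 and 3.33 to 3.80 in PC3 cells and vimentin (VIM) at 5.94 to 6.39 and 15.0 to 15.2. Of 5 CWR22Rv1 markers with a value, KLK3 and HOXB13 overlapped between the lines, and 2 of 5 fell with starvation in CWR22Rv1 cells and 1 of 5 in PC3 cells. Among 6 PC3 markers KRT7 fell in CWR22Rv1 cells (-1.06, adjusted p = 0.0229 from limma), and in PC3 cells CD44 rose (0.99, 0.0176) and TGFBI fell (-1.87, 0.00139). The part of these markers in the results was not tested.

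The first question was which assembly factors changed in CWR22Rv1 cells after 48 h without arginine. The mRNAs of 4 members fell and none rose. COX18 and COA3 of complex IV and FOXRED1 and NDUFAF2 of complex I passed limma's test at an adjusted p under 0.05, with Benjamini-Hochberg adjustment over all genes. Thus 4 of 43 members fell where 3.74% of all genes did, and 0 rose where 3.2% did. Without the dimmest 30% of genes, 5 of 42 members fell where 7.16% of the genes kept did, and 0 rose where 6.37% did. COX18, COA3 and FOXRED1 fell at least 2-fold, as did 2.43% of all genes, while 1.8% rose that much. At an unadjusted p under 0.05, 14 members were lower and 3 were higher, where 10.4% and 10.1% of all genes were. The value tested is the mean of the 48 h differences in both experiments, each against its own control, and the lone array of a condition is assumed to vary like the others in the fit. By direction alone, 26 of 43 members (60.5%) were lower in both experiments, as were 24.5% of all genes, and 5 members (11.6%) were higher in both, as were 26.4% of all genes. NDUFAF7, NDUFAF8, UQCC2, SURF1 and COA5 were those 5. A further 9 members had opposite signs and 3 stood at exactly 0 in the DMKG experiment. The share of all genes with such a 0 was 21.6%, which lowers the share of all genes in either direction. The median difference over the 43 members was -0.23 in the time course and -0.27 in the DMKG experiment, beside medians over all genes of 0.03 and 0. Complex IV had medians of -0.42 and -0.41, with 13 of 16 members below 0 in the time course and 12 of 16 in the DMKG experiment. Of all genes, 47.2% and 39.2% were below 0 there.

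**Figure D1:**
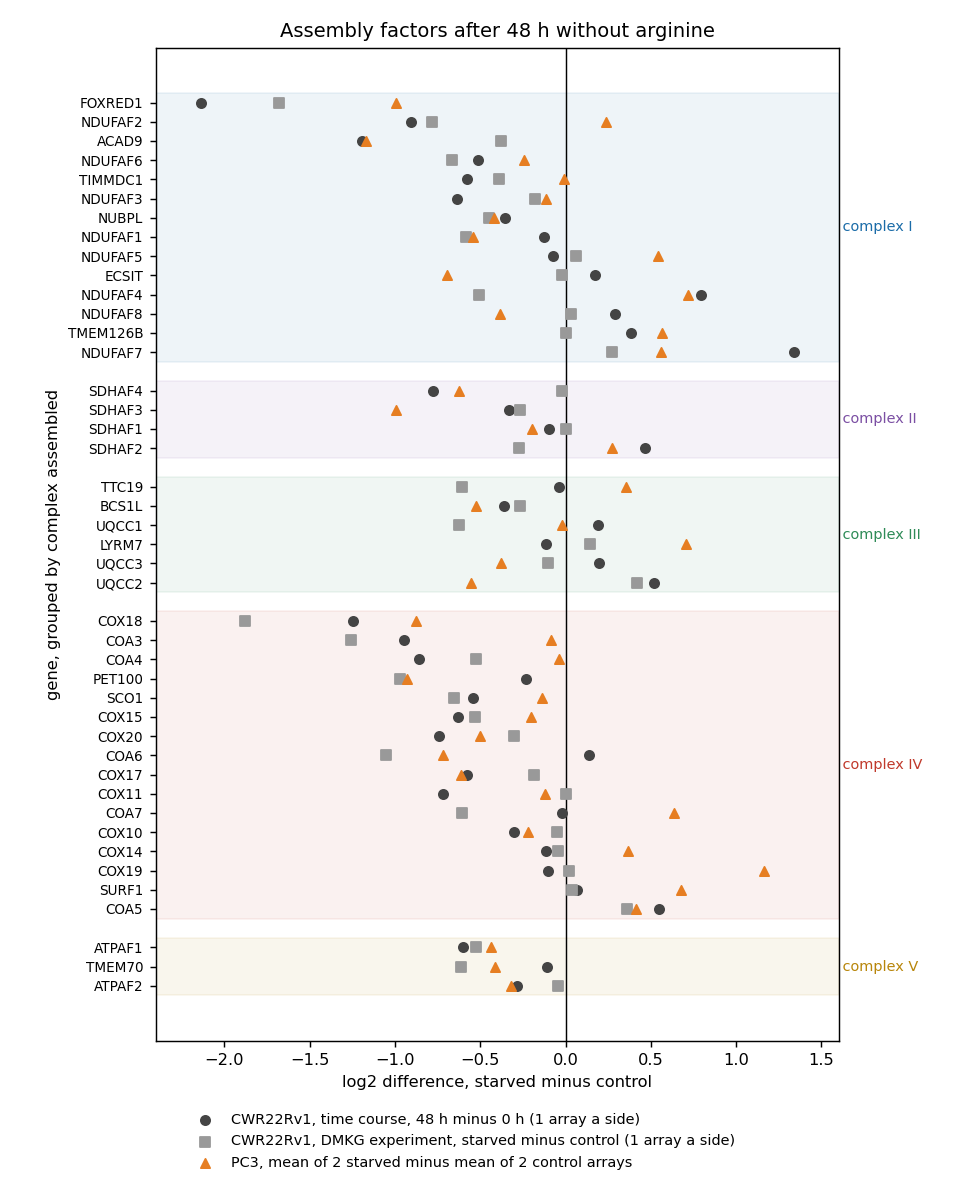
Log2 difference (horizontal axis) of each of the 43 assembly factors after 48 h without arginine, grouped by complex and ordered by the CWR22Rv1 mean, in the time course (circles, 1 array a side), the DMKG experiment (squares, 1 array a side) and PC3 cells (triangles, 2 arrays a side). COX18, COA3, FOXRED1 and NDUFAF2 lie at -0.78 or lower in both CWR22Rv1 experiments, and COX19 has the highest PC3 value, 1.16.

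COX18, which inserts the tail of COX2 through the inner membrane, was the complex IV factor with the lowest difference at 48 h. In the time course it stood at 9.14 at 0 h, 8.47 at 24 h and 7.90 at 48 h. In the DMKG experiment it stood at 10.14 in control cells, 8.26 in starved cells and 8.25 in starved cells with DMKG. Both cultures starved for 48 h were therefore below the control of their own experiment, and the 24 h array lay between 0 h and 48 h. The fitted fall was -1.56 with a standard error of 0.20 (limma, adjusted p = 0.00683). The study also picked COX18 for RT-qPCR, so its fall here is not independent evidence of its direction.

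COA3, which stabilises newly made COX1, stood at 11.73, 10.94 and 10.78 at 0, 24 and 48 h, and at 12.15, 10.90 and 10.89 in control, starved and DMKG-treated cells. All 4 starved arrays, DMKG included, were below the control of their own experiment. The fitted fall was -1.10 with a standard error of 0.19 (limma, adjusted p = 0.0173). COA4, a twin CX9C protein of the intermembrane space, stood at 9.42, 8.39 and 8.56 in the time course and at 8.74, 8.21 and 7.80 in the DMKG experiment, and its difference of -0.69 did not pass (adjusted p = 0.0570). Among the copper factors, SCO1 differed by -0.60, COA6 by -0.46, COX17 by -0.38, COX11 by -0.36 and COX19 by -0.04, and none passed. The haem A enzymes COX15 (-0.58) and COX10 (-0.18) did not pass either, nor did PET100 (-0.60), COX20 (-0.52), COA7 (-0.31), COX14 (-0.08), SURF1 (0.05) or COA5 (0.45).

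FOXRED1, a flavoprotein of the middle to late steps of complex I assembly, had the lowest difference of all members. Its signal was 10.81 at 0 h, 10.02 at 24 h and 8.67 at 48 h. The DMKG experiment gave 11.14 in control, 9.46 in starved and 9.62 in DMKG-treated cells. Every starved array lay below the control of its experiment, and the fitted fall was -1.91 with a standard error of 0.33 (limma, adjusted p = 0.0165). NDUFAF2, which binds a late assembly intermediate of complex I, stood at 10.29, 9.22 and 9.39 at 0, 24 and 48 h and at 9.31, 8.53 and 9.15 in control, starved and DMKG-treated cells. It was below its control on every starved array, most narrowly with DMKG, with a fitted fall of -0.84 and a standard error of 0.20 (adjusted p = 0.0433). The MCIA genes went different ways, with ACAD9 at -0.79, TIMMDC1 at -0.49, NDUFAF1 at -0.35, ECSIT at 0.07 and TMEM126B at 0.19, none past the threshold. The Q-module factors NDUFAF6 (-0.59), NDUFAF3 (-0.41) and NDUFAF4 (0.14) and the iron-sulfur factor NUBPL (-0.40) did not pass, nor did NDUFAF5 (-0.0056), NDUFAF8 (0.16) or NDUFAF7 (0.81), which modify or help modify matrix-arm subunits. NDUFAF7, a protein arginine methyltransferase, had the highest difference of all members, and it rested on unequal parts of 1.34 in the time course and 0.27 in the DMKG experiment.

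**Figure D2:**
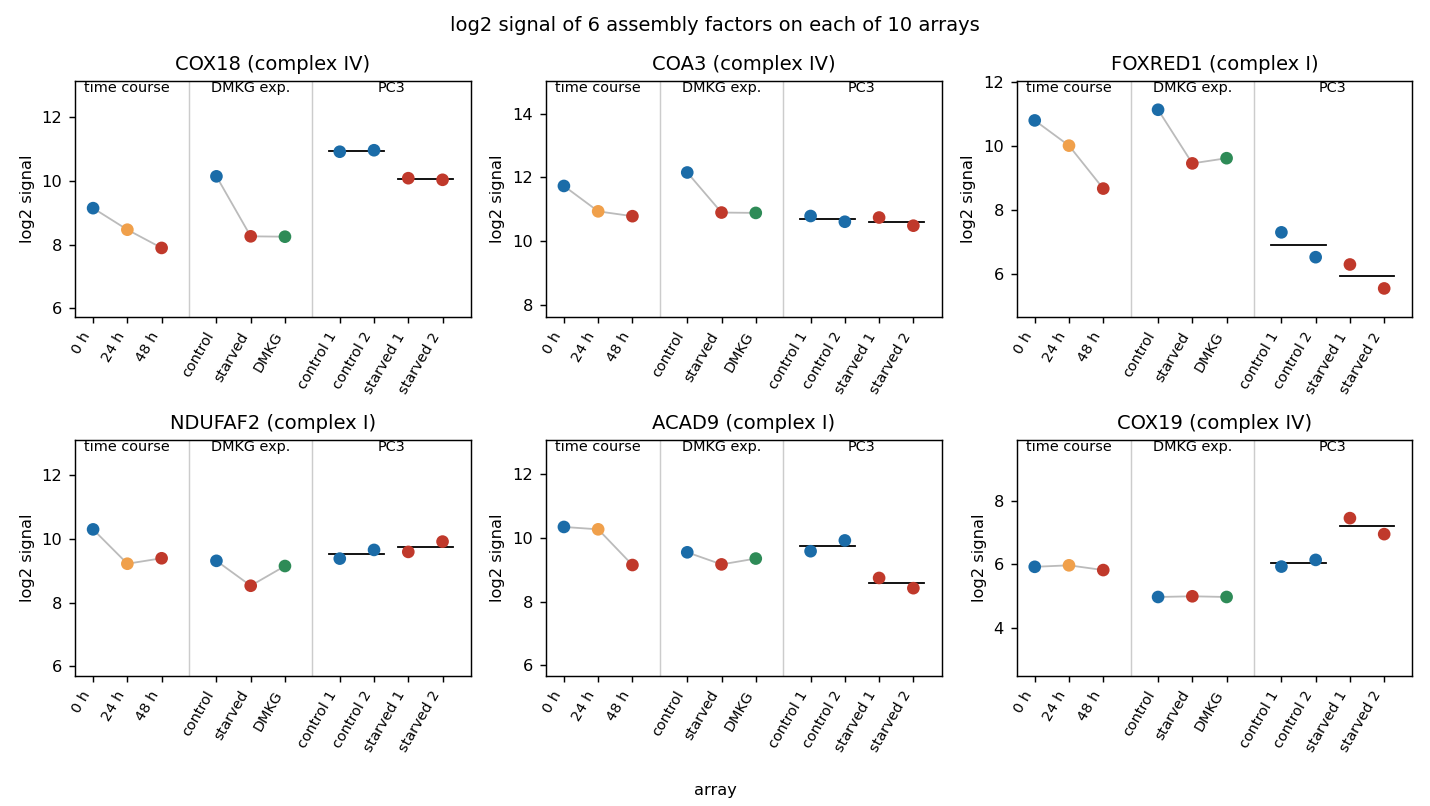
Log2 signal (vertical axis) of COX18, COA3, FOXRED1, NDUFAF2, ACAD9 and COX19 on each of the 10 arrays, with control arrays in blue, 24 h in orange, 48 h without arginine in red, DMKG in green, and PC3 group means as black bars. COX18 lies below its control on every starved array of both lines, while COX19 was called only in PC3 cells, where both starved arrays lie above both controls.

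No factor of complexes II, III or V passed in CWR22Rv1 cells. SDHAF1, near the negative controls throughout, differed by -0.05, SDHAF2 by 0.10, SDHAF3 by -0.30 and SDHAF4 by -0.40. For complex III the medians were 0.08 in the time course and -0.18 in the DMKG experiment. The Rieske factors TTC19 (-0.32) and BCS1L (-0.31) lay below 0 and LYRM7 at 0.01, and the cytochrome b factors UQCC1, UQCC3 and UQCC2 differed by -0.22, 0.05 and 0.47. The 3 factors of the ATP synthase were below 0 in both experiments, at -0.56 for ATPAF1, which chaperones the F1 beta subunit, -0.36 for TMEM70, which serves the c-ring, and -0.16 for ATPAF2, which chaperones the alpha subunit.

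These calls rested on few arrays. When either the 0 h or the 48 h time-course array was left out, the 48 h difference rested on 1 array a side. It was then -1.88 for COX18, -1.26 for COA3, -1.68 for FOXRED1 and -0.78 for NDUFAF2. When either the control or the starved DMKG-experiment array was left out, the differences were -1.25, -0.95, -2.14 and -0.91 in the same order. Fewer members and fewer of all genes were called in each of these fits, and COA3, FOXRED1 and NDUFAF2 in none. COX18 kept its call only where a time-course array was missing. NDUFAF2 also lost its call without any single PC3 array (adjusted p = 0.0614 to 0.0653).

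The start regions of 3 of these genes are shown because COX18 holds a motif of a respiratory chain regulator at 1 of its 2 listed start sites and the other two start beside a neighbouring gene. They are the 250 bases before a start site in RefSeq on GRCh38.p14, read 5′ to 3′ on the gene's strand. COX18 lies on the minus strand at chr4:73069717-73069966, COA3 on the minus strand at chr17:42798705-42798954 and NDUFAF2 on the plus strand at chr5:60944955-60945204. Capitals mark matches to the motif of NRF1, a nuclear respiratory factor, taken as GCGC, any base and then TGCGC, on either strand.
COX18: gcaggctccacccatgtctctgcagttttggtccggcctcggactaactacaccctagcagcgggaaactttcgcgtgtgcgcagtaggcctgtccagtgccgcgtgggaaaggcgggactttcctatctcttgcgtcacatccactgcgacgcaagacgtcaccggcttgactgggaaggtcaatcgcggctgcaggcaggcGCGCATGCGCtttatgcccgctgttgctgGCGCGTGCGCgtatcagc
COA3: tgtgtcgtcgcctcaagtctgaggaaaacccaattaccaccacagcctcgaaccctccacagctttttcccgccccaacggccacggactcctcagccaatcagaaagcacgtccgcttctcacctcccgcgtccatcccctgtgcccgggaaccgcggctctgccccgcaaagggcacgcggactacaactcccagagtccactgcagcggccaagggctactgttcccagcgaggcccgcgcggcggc
NDUFAF2: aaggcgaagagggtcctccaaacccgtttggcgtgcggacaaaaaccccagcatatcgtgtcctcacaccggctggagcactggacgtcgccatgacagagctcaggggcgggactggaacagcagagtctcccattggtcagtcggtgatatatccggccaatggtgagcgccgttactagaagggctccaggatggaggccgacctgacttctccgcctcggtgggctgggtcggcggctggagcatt
COX18 held 2 matches, at -47 and -18 from the first start site listed. Its other start site lies 43 bases upstream, so that the match at -18 falls inside the gene and the one at -47 crosses that start, and the window before it held 0 matches. COA3 and NDUFAF2, with 1 start site each, held none. FOXRED1, also called in CWR22Rv1 cells, had no promoter among those searched, so its motifs and neighbours were not read. NDUFAF2 starts 135 bases from ERCC8, a DNA repair gene that is read the other way, and COA3 starts 157 bases from CNTD1. ERCC8 fell by 1.06 in CWR22Rv1 cells (limma, adjusted p = 0.0299) and was lower in both experiments. In PC3 cells it differed by -0.60 (adjusted p = 0.0951), where NDUFAF2 differed by 0.24. CNTD1 differed by -0.76 in CWR22Rv1 (adjusted p = 0.0916) and by 0.12 in PC3 cells, beside COA3 at -1.10 and -0.09. In all, 13 of the 38 members with a promoter in the table had such a neighbour within 1000 bases. The share of all promoters with one was not counted. In CWR22Rv1 cells some pairs had opposite signs, such as SCO1 with ADPRM and BCS1L with ZNF142. Others shared a sign, such as COX15 with CUTC.

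Over the 38 member promoters the NRF1 motif was found in 7 (18.4%), where 7.65% of 15843 protein-coding promoters hold it. The members were ACAD9, COX17, COX18, SDHAF3, SDHAF4, UQCC1 and UQCC2. These counts use the first start site listed for each gene, and 9 of the 38 have several. COX17 and COX18 lacked the motif at their other start site, which leaves 5 members (13.2%) with it at every start site, where 6.33% of all genes have it. CCGGAAGT, the motif of GABPA, also known as nuclear respiratory factor 2, was in 8 (21.1%), where 5.09% hold it, namely COA4, COA5, COX10, COX15, LYRM7, SCO1, SDHAF2 and TIMMDC1. No member had both. TGACGTCA, the site of CREB-type factors, was in ACAD9 and NUBPL (5.26%, against 2.32%). The motifs AAGATGGCG of YY1, TCAAGGTCA of ESRRA and TGATGNAAT of ATF4 were in none of these windows and in 0.751%, 0.215% and 0.537% of all promoters. All motifs were searched on both strands, and a match describes the letters, not binding.

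The time course also asked how early the changes appear. The 24 h test came from a separate limma fit whose estimate of spread rests on the PC3 arrays alone. At 24 h no member was called and no gene at all was (0% in either direction). At an unadjusted p under 0.05 in the same limma fit, 7 members were lower and 3 higher, where 6.25% and 6.36% of all genes were. The lowest values at 24 h were of complex IV and complex I factors, with COX15 at -1.16, NDUFAF2 at -1.08, COA4 at -1.03, COX10 at -0.83 and COA3 at -0.80. COX15 makes haem A from the product of COX10, and both were closer to the 0 h array at 48 h, at -0.63 and -0.30. COX18, FOXRED1 and ACAD9 were at -0.67, -0.79 and -0.07 at 24 h and at -1.25, -2.14 and -1.19 at 48 h. The complex IV median was -0.37 at 24 h and the complex I median was -0.08.

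The same question was asked of PC3 cells, which had 2 arrays a side. In these cells 5 members fell and 2 rose, namely ACAD9 and ECSIT of complex I, SDHAF3 of complex II and COX18 and PET100 of complex IV on the one hand, and LYRM7 of complex III and COX19 of complex IV on the other. Of all genes, 10% fell and 9.59% rose, so 5 and 2 of 43 are near the background. With a 2-fold minimum ACAD9 fell and COX19 rose, beside 5.8% and 4.82% of all genes. At an unadjusted p under 0.05, 15 members were lower and 7 higher, where 16% and 16.6% of all genes were. Control and starved arrays did not overlap for 20 members with lower starved values (46.5%, against 28.6% of all genes) and for 12 with higher ones (27.9%, against 31.3%).

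ACAD9, an MCIA protein related to fatty acyl-CoA dehydrogenases, stood at 9.58 and 9.92 in control and 8.74 and 8.42 in starved PC3 cells. The fitted fall was -1.17 with a standard error of 0.25 (limma, adjusted p = 0.0139). In CWR22Rv1 cells it went from 10.34 at 0 h and 10.26 at 24 h to 9.15 at 48 h, and from 9.54 in control to 9.16 in starved and 9.35 in DMKG-treated cells. Those differences of -1.19 and -0.38 pointed the same way but did not pass together. Its start region, on the plus strand at chr3:128879370-128879619, is shown because it holds the NRF1 motif at -196 and -46 and a CREB site at -158, in capitals.
ACAD9: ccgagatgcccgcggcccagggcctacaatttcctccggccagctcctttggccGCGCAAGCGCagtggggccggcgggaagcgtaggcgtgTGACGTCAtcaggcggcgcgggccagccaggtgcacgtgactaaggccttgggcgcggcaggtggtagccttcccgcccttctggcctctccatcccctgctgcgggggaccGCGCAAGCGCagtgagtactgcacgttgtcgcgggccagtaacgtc
ECSIT, another MCIA protein, fell by 0.69 in PC3 cells (adjusted p = 0.0281).

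COX19, a copper-handling protein of the intermembrane space, went the other way. Its signal was 5.93 and 6.14 in control and 7.45 and 6.95 in starved PC3 cells, a rise of 1.16 with a standard error of 0.22 (limma, adjusted p = 0.00786). In CWR22Rv1 cells it did not pass and stood at 5.92, 5.97 and 5.82 in the time course and 4.98, 5.00 and 4.98 in the DMKG experiment. COX18 stood at 10.91 and 10.96 in control and at 10.08 and 10.03 in starved PC3 cells and fell by 0.88 (standard error 0.20, adjusted p = 0.0187). It was the only member called in both lines. SDHAF3, which helps to mature the iron-sulfur subunit SDHB, stood at 9.94 and 9.99 in control and 8.94 and 9.01 in starved cells and fell by 0.99 (standard error 0.17, adjusted p = 0.00539). PET100 fell by 0.93 (adjusted p = 0.0195). LYRM7, which holds the Rieske protein before its insertion, rose by 0.71 (adjusted p = 0.0439).

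The other members of PC3 cells did not pass. FOXRED1 was at 7.30 and 6.52 in control and 6.29 and 5.54 in starved cells, a difference of -0.99 (adjusted p = 0.0694) with wide spread within both groups. COA3 stood at 10.79 and 10.61 against 10.74 and 10.49, NDUFAF2 at 9.38 and 9.65 against 9.59 and 9.91 and COA4 at 11.45 and 11.37 against 11.38 and 11.37, so in all 3 the groups overlapped. COX17, the copper chaperone upstream of SCO1 and COX11, differed by -0.61 (adjusted p = 0.0513), COA6 by -0.72, SDHAF4 by -0.62, UQCC2 by -0.55, NDUFAF1 by -0.54, BCS1L by -0.53 and COX20 by -0.50. On the higher side NDUFAF4 differed by 0.72, SURF1 by 0.68, COA7 by 0.64, TMEM126B and NDUFAF7 both by 0.56 and NDUFAF5 by 0.54. The remaining members lay between -0.44 (ATPAF1) and 0.41 (COA5). The 3 ATP synthase factors were again all below 0, with a median of -0.42.

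Among the falls, SDHAF3 alone stayed called without any one of the 4 PC3 arrays (adjusted p = 0.0336 to 0.0389 from limma). ACAD9 lost its call without control 2 (0.0899) or starved 2 (0.0948), and COX19 without control 1 (0.0583) or starved 1 (0.0521). COX18 (adjusted p = 0.0761 to 0.0974), ECSIT (0.0735 to 0.148) and PET100 (0.0681 to 0.105) lost theirs without any single PC3 array. LYRM7 did so too (0.0716 to 0.218), also without the control or 48 h starved array of either CWR22Rv1 experiment (0.0567) and with the PC3 replicate number as a block (0.0712).

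Whether the response at 48 h differed between the lines was itself tested in the limma fit of the 48 h calls. No member was called, where 1.97% of all genes had a higher and 2.43% a lower difference in PC3 cells. At an unadjusted p under 0.05, 8 members had a higher and 3 a lower value in PC3 cells, where 9.58% and 10.1% of all genes did. The largest gaps were those of COX19 (1.203, standard error 0.30, adjusted p = 0.0695 from limma), NDUFAF2 (1.08, 0.28, 0.0746), UQCC2 (-1.02, 0.25, 0.0608) and COA3 (1.02, 0.27, 0.0818). A fall of COA3 called in CWR22Rv1 cells and not in PC3 cells is thus not shown to differ between them. For COX18 the gap was 0.69 (standard error 0.28, adjusted p = 0.230). Of the 26 members lower in both CWR22Rv1 experiments, 22 were also lower in PC3 cells (51.2% of the 43, against 16.1% of all genes), and NDUFAF2, TTC19, COX14 and COA7 were higher there. NDUFAF7, SURF1 and COA5 were higher in all 3 comparisons. Across the 43 members the differences of the lines correlated with Pearson's r of 0.50 and Spearman's rho of 0.445, and across all genes with 0.446 and 0.36, as a description over genes measured on the same arrays.

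**Figure D3:**
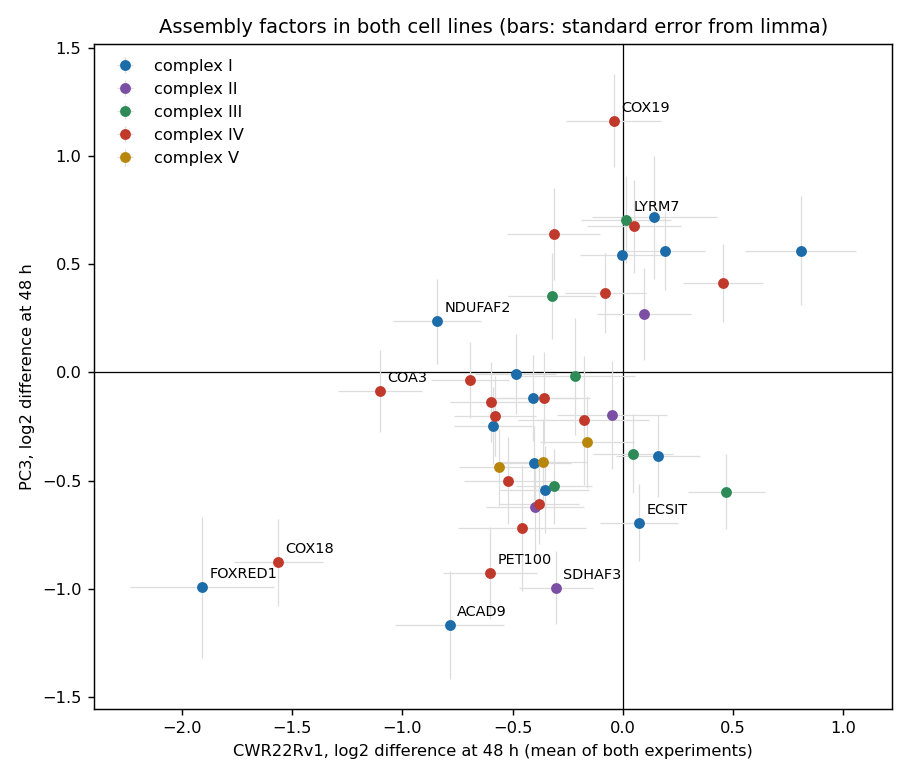
Log2 difference after 48 h without arginine in CWR22Rv1 cells (horizontal axis, mean of both experiments) and PC3 cells (vertical axis) for the 43 assembly factors, coloured by complex, with grey bars for the standard error from limma; the 10 named genes are those called in either line. COX18 is the only member called in both, COA3 and NDUFAF2 lie near 0 or above it in PC3 cells, and COX19 lies near 0 in CWR22Rv1 cells.

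The DMKG experiment asked what changed when starved CWR22Rv1 cells received DMKG. Its test came from the same fit as the 24 h test, so its estimate of spread also rests on the PC3 arrays alone. No member and no gene (0%) was called for DMKG against starved cells. At an unadjusted p under 0.05 there were 0 members, where 1.12% of all genes were higher and 1.29% lower in the limma fit. With DMKG, 22 members were higher, 13 lower and 8 (18.6%) exactly equal to the starved array, and their median difference was 0.0083. Of all genes, 36.1% were higher, 37.6% lower and 26.3% equal. In complex I, 9 of 14 members were higher with DMKG, 3 lower and 2 equal, with a median of 0.17, and in complex IV 5 of 16 were higher, 8 lower and 3 equal, with a median of -0.0056. NDUFAF2 had the largest difference, 0.62 (standard error 0.28), from 8.53 to 9.15 with its control at 9.31. BCS1L, the chaperone that moves the Rieske protein across the membrane, was at 10.64 in control, 10.38 in starved and 10.70 in DMKG-treated cells, so that the DMKG value lay above both others. Its other values were 11.80, 11.42 and 11.45 in the time course, and in PC3 cells 10.53 and 10.70 in control against 10.07 and 10.10 in starved cells.

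TMEM70 was at 11.09 in control, 10.47 in starved and 10.67 in DMKG-treated cells, with 10.36, 10.13 and 10.25 in the time course and 13.21 and 13.46 against 12.90 and 12.94 in PC3 cells. COA4 was at 8.74, 8.21 and 7.80, so that its DMKG value lay below both others. SDHAF3, with 9.01, 8.74 and 8.77 in this experiment and 9.68, 9.51 and 9.34 in the time course, had the largest difference in complex II, only 0.03, because the 3 others were exactly equal between starved and DMKG arrays. The 2 complex IV factors that fell with starvation, COX18 and COA3, both differed by -0.01 between DMKG and starved cells, and FOXRED1 differed by 0.16. Against the control array, the median of the members with DMKG was -0.22, and those of complexes I and IV were -0.18 and -0.47. These comparisons share arrays of 1 culture each, so their values are given side by side only.

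**Figure D4:**
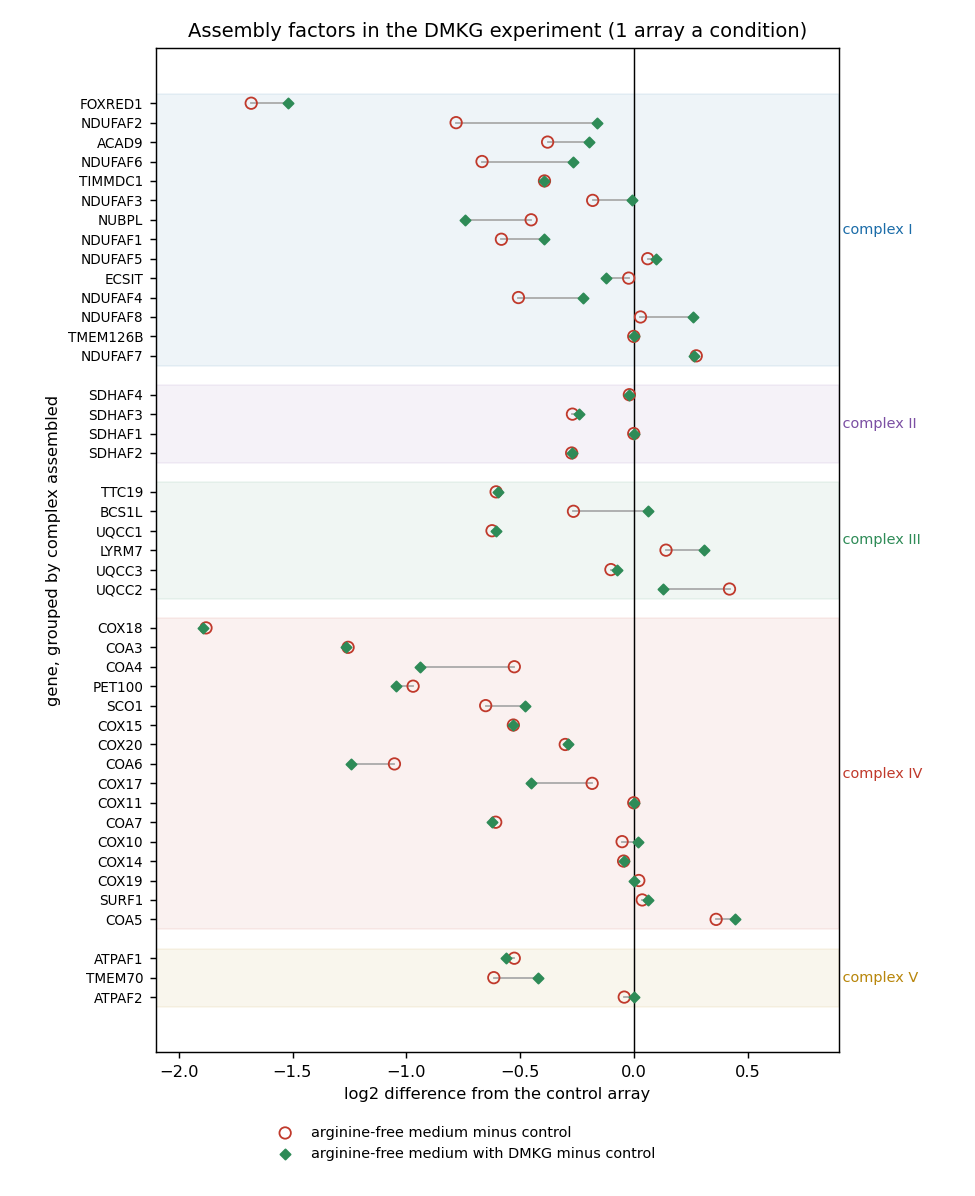
Log2 difference from the control array (horizontal axis) of each assembly factor in arginine-free medium (open circles) and in arginine-free medium with DMKG (diamonds) in CWR22Rv1 cells at 48 h, 1 array a condition, grouped by complex. NDUFAF2 has the longest line, from -0.78 to -0.16, COX18 and COA3 overlie near -1.88 and -1.26, and TMEM126B, SDHAF1 and COX11 lie at exactly 0.

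The finished enzymes and the supply lines around the assembly factors give the setting. Of 69 nuclear-encoded subunits of complexes I to V, 13 fell in CWR22Rv1 and 25 in PC3 cells and none rose, where 3.74% and 10% of all genes fell and 3.2% and 9.59% rose. Their median differences were -0.26 and -0.43. For complex IV the medians were -0.42 for its 16 factors and -0.15 for its 10 subunits in CWR22Rv1 cells, and -0.13 and -0.27 in PC3 cells. The CWR22Rv1 order was not the same in both experiments. Factors and subunits had medians of -0.42 and -0.02 in the time course, and of -0.41 and -0.52 in the DMKG experiment. The PC3 median of the factors was -0.04 without control 1, -0.25 without starved 1 and -0.0126 without starved 2. Of 30 further assembly genes with a value, 4 fell in CWR22Rv1 and 6 in PC3 cells, beside the same 3.74% and 10% of all genes, and none rose. SLIRP, which with LRPPRC stabilises mitochondrial mRNAs, fell in both lines, at -1.49 in CWR22Rv1 (limma, adjusted p = 0.00580) and -1.33 in PC3 cells (adjusted p = 0.00164). CMC2, a complex IV factor, and MTFMT, which formylates the mitochondrial initiator tRNA, fell in both lines as well, at -0.91 and -1.35 and at -0.98 and -0.64. HIGD2A fell in CWR22Rv1 cells (-0.72, against 0.10 in PC3 cells). COA1, TMEM177 and TMEM223 fell in PC3 cells (-0.90, -1.10 and -1.77, against -0.34, -0.17 and -0.67 in CWR22Rv1 cells). None of these 4 passed the test of the difference between the lines (adjusted p = 0.109, 0.235, 0.0947 and 0.135 from limma). Of 15 genes of iron-sulfur cluster supply, BOLA3, which passes clusters to mitochondrial enzymes, fell in both lines, at -1.62 (adjusted p = 0.00588) and -0.97 (adjusted p = 0.00900). In PC3 cells the cysteine desulfurase NFS1 (-1.16) and GLRX5 (-0.85) also fell, while the scaffold ISCU (0.89) and its co-chaperone HSCB (0.60) rose. Of 15 genes of haem and copper supply none passed in CWR22Rv1 cells, and CPOX (-0.99) and ABCB10 (-1.02) of the haem pathway fell in PC3 cells.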

How the data were processed

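RNA was measured on 10 Clariom S arrays. The authors made the log2 values with the Transcriptome Analysis Console; its version, background correction and normalization were not stated in what was read here. The deposited log2 table lists 24351 probe sets, 17709 of them with just 1 symbol, and the probe set with the highest mean stood for each of 20 genes with several, none of them a member. limma 3.58.1 under R 4.3.3 fitted all 10 arrays with an intercept for each of 3 sets (time course, DMKG experiment, PC3) and effects of 24 h, 48 h in CWR22Rv1, DMKG and PC3 starvation, with 3 residual degrees of freedom and a prior of 5.09. The 24 h and DMKG tests took a separate 48 h effect in each CWR22Rv1 experiment, with 2 residual degrees of freedom. These come from the PC3 arrays, so the p-values and standard errors of both tests hold no spread between CWR22Rv1 arrays. A call needed an adjusted p under 0.05 over all 17687 genes, two-sided, in 5 comparisons. The model was tested on simulated data of the same design with independent errors. Those data were given 1 shared 48 h effect and no equal values between arrays, so the test does not cover departures from these. The number of arrays limits the precision.

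The members and lists were chosen with earlier results of these data known. Values on every array are given for members called at 48 h in CWR22Rv1 cells, for those called in PC3 cells with a log2 difference of at least 1, for the member of each complex with the largest difference with DMKG, and for COX18. Alternatives were quantile normalization, centring on the median, leaving out the dimmest 30% of genes, limma with trend and robust, other models and samples, each array left out, a 2-fold minimum, the PC3 replicate number as a block and the methods' t-test; 2 that leave out a CWR22Rv1 experiment, and the motif search at every listed start site, were chosen after seeing the data. Promoters came from a RefSeq table of GRCh38.p14. Python 3.11.15, pandas 2.3.3 and matplotlib 3.10.9 were used. RT-qPCR, ChIP and metabolite data were not analysed here.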

Additional observations from a re-analysis of the deposited data

Results flagged for a closer look

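A test of the difference between the cell lines was passed by 4 genes of the comparison lists and by no member. CHCHD4, an import receptor of the intermembrane space that brings in twin CX9C proteins, had a PC3 minus CWR22Rv1 difference of 1.204 (standard error 0.26, adjusted p = 0.0413 from limma), from -0.71 in CWR22Rv1 and 0.49 in PC3 cells. NDUFB7, a complex I subunit of the intermembrane space side, had a difference of -1.52 (standard error 0.32, adjusted p = 0.0398), from -0.18 in CWR22Rv1 and -1.70 in PC3 cells. The 2 others are PC3 markers. CD44 had a difference of 1.44 (standard error 0.32, adjusted p = 0.0444), from -0.45 in CWR22Rv1 and 0.99 in PC3 cells, and TGFBI one of -1.58 (standard error 0.33, adjusted p = 0.0369), from -0.28 and -1.87.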

How the results depend on the processing

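The counts of called members moved with the model more than with the scaling. Shares of all genes called in the same direction are given in brackets. In CWR22Rv1 cells the 4 falls (3.74%) became 5 without the dimmest genes (7.16% of the genes kept) and 8 with trend and robust (5.64%). They became 0 with each line fitted on its own (0%) and 0 with no term for the experiment (0%). The methods' t-test gave 2 unadjusted (1.85%) and 0 after Benjamini-Hochberg (0%). Members and all genes alike had fewer falls when 1 CWR22Rv1 experiment, or any control or 48 h starved array, was left out. The 0 rises (3.2%) became 1 with trend and robust (5.16%) and 1 with a separate effect in each experiment (3.82%). They stayed at 0 without the dimmest genes (6.37% of the genes kept). In PC3 cells the 5 falls (10%) became 8 without the dimmest genes (15.6% of the genes kept) and 10 with trend and robust (11.5%). A 2-fold minimum gave 1 (5.8%), and the methods' t-test 10 unadjusted (12.3%) and 0 after adjustment (0.0396%). The 2 rises (9.59%) became 5 (15%), 5 (11.2%) and 1 (4.82%) in the same order, and 4 (12.6%) and 0 (0.017%) with the methods' t-test. When any 1 PC3 array was left out, falls and rises were fewer among the members and over all genes. For the difference between the lines, 0 calls became 1 lower and 2 higher both without the dimmest genes and with trend and robust. All genes went from 2.43% lower and 1.97% higher to 4.57% and 3.92% and to 3.74% and 3.54%. At 24 h trend and robust gave 2 falls among the members (1.2%) and 0 rises (1.28%). The cause was not tested.

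The PC3 replicates share only a number (correlation of their deviations -0.0269). The replicate block gave 6 falls (8.74% of all genes) and 1 rise (7.88%). It gave 0 differences between the lines, where 1.65% of all genes were lower and 1.18% higher. Fitting CWR22Rv1 cells alone was not run for 24 h and DMKG, since no residual degrees of freedom are left. The 48 h differences of the called members, and the largest DMKG difference in each complex, kept their sign in every alternative. Medians and other genes were not part of that check. The complex IV median for DMKG minus starved changed sign, as given below.

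Spread was here the standard deviation of the 2 CWR22Rv1 48 h medians, also for the 24 h and DMKG medians, which have no replicate. In PC3 cells it was that of the 2 starved arrays, each against the control mean. For complex IV the CWR22Rv1 medians, -0.42 and -0.41, lay so close that small shifts count as moved. Medians that moved by more than this spread are listed next. After centring they were -0.16 over all members at both 24 h and 48 h of the time course. For complex II the value was -0.14 at 48 h of the time course. For complex IV the values were -0.33 at 24 h, -0.35 at 48 h and -0.44 in the DMKG experiment. Quantile normalization gave complex IV -0.39 at 24 h, -0.39 at 48 h and -0.44 in the DMKG experiment. For DMKG minus starved, complex IV went from -0.0056 to 0.0034 after quantile normalization and to 0.0089 after centring. Without the dimmest genes complex II was -0.33 in the time course, -0.27 in the DMKG experiment and -0.62 in PC3 cells. In PC3 cells all members gave -0.16 after quantile normalization, -0.15 after centring and -0.28 to -0.16 with each array left out, complex II -0.60 to -0.22, complex IV -0.25 to -0.0126, and complex V -0.36 after centring and -0.44 to -0.29.

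Signals near the negative controls, here SDHAF1, cannot show a further fall.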
